A study of Mus musculus with 23 samples.

Results

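Histone marks were examined at the 36 glutamate and GABA-A receptor genes, out of 21938 protein-coding genes. The genes were chosen by name and not by any measured value, though earlier results of these data were known. They were 4 AMPA, 5 kainate and 7 NMDA receptor subunit genes and the delta receptor gene Grid1. The rest were 7 metabotropic glutamate receptor genes and 12 GABA-A receptor subunit genes. For each gene, peaks of 8 lists were counted within 5 kb of the transcription start site (TSS) and in the rest of the gene body.

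ChIP-seq for H3K27ac and H3K27me3 was carried out on cells of the embryonic cerebral cortex of Tg(Ebf2-EGFP)FB58Gsat mice, sorted by EGFP. Cells with the reporter (Ebf2-EGFP+) came from embryos of E11.5, of E13.5 and of E15.5. Cells without it (Ebf2-EGFP-) came from the first of these stages alone. Every group, the EGFP- group included, came from this transgenic strain and was untreated as far as the labels say. Each group had 2 libraries per mark, apart from the EGFP- cells with 1 for H3K27ac, and 1 peak list was deposited per group and mark. Per the study, Ebf2-EGFP marks preplate neurons at first and then Cajal-Retzius (CR) cells, which secrete Reelin from the outermost layer. The EGFP- cells of E11.5 are described there as mostly neural stem and progenitor cells. They are defined by lack of the reporter, so they may hold any other cell of the cortex, and no EGFP- cells of later stages were in these ChIP groups. The H3K27ac and H3K27me3 lists of EGFP- cells are therefore a reference of 1 stage only.

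Glutamate and GABA are the main fast transmitters of the brain. AMPA, kainate, NMDA and GABA-A receptors are ion channels built from several subunits, while metabotropic glutamate receptors signal through G proteins. CR cells and other early cortical neurons carry such receptors before most synapses exist. H3K27ac marks active promoters and enhancers, and H3K27me3 is the mark that Polycomb repressive complex writes on silent genes, often where CpG dinucleotides are dense.

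The promoters below are shown because they go from dense to sparse in CpG and differ in their marks. CpG dinucleotides are in capitals, and each sequence runs from 250 bases before to 50 after the RefSeq start on GRCm38.p6, 5′ to 3′ on the strand of the gene. Grik3 (chr4:125490446-125490745, plus strand) had H3K27ac at all 3 stages of Ebf2-EGFP+ cells. Grin1 (chr2:25319138-25319437, minus strand) and Gria2 (chr3:80802786-80803085, minus strand) had it at the later pair of stages, and Gabra6 (chr11:42321023-42321322, minus strand) had no peak in any list. They held 50, 33, 26 and 2 CpG, in that order.
Grik3: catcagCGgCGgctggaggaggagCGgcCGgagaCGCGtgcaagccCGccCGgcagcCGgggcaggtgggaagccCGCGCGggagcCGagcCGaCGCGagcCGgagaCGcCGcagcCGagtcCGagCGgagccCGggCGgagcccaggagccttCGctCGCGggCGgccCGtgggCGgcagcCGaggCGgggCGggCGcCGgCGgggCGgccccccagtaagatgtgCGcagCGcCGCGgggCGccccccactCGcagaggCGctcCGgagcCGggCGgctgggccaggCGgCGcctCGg
Grin1: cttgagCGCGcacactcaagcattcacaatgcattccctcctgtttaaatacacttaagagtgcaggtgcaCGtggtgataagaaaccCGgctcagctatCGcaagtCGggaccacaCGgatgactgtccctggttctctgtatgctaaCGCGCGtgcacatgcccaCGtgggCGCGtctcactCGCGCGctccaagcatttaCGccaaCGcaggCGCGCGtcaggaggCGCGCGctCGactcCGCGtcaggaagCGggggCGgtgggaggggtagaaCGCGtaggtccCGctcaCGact
Gria2: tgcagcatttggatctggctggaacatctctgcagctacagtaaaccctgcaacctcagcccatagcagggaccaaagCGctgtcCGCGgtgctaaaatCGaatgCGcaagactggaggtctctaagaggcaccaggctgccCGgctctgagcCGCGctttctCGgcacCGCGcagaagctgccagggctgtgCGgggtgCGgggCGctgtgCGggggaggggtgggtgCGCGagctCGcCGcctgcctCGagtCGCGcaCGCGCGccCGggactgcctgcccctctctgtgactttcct
Gabra6: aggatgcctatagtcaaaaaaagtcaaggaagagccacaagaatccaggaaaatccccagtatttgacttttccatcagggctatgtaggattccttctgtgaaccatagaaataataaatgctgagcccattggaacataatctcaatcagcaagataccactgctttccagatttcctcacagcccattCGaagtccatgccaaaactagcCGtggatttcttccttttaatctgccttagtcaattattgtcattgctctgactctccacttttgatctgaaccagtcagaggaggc

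The lists differed greatly in length, and the marks were checked on genes of known kind before the receptor genes were read. The H3K27ac lists held from 1386 peaks (E11.5 Ebf2-EGFP- cells) to 102881 (positive cells at E13.5), and the H3K27me3 lists from 1438 (positive cells at E15.5) to 48963 (E11.5 Ebf2-EGFP- cells). Of 20 housekeeping genes, 5 had H3K27ac at the TSS in EGFP- cells and 9 had H3K27me3 there, against 15 and 1 in Ebf2-EGFP+ cells of the same stage. Of 20 classical Polycomb targets that are silent in cortex, 13, 18 and 6 had H3K27ac in Ebf2-EGFP+ cells over the 3 stages. H3K27me3 was listed at 17 of these 20 in EGFP- cells, and at 0, 11 and 1 in Ebf2-EGFP+ cells by stage. The list of H3K27me3 in EGFP- cells thus held genes known to be active too, the H3K27ac lists held genes known to be silent, and the H3K27me3 lists of Ebf2-EGFP+ cells lacked most of these targets at E11.5 and E15.5. Of 8 neuronal markers, 7, 6 and 7 had H3K27ac in Ebf2-EGFP+ cells by stage, as did 5, 6 and 4 of 6 progenitor markers and 4, 5 and 3 of 5 interneuron markers. Reln, which encodes Reelin, had it in all 4 groups, the EGFP- cells included. Endothelial, microglial, erythroid and meningeal markers had it at 1 to 3 of 5 genes in each list of positive cells, and the part of such cells in the values given here was not tested. A peak is therefore given here as a listed position only. Values given by stage run from the earliest to the latest. No read counts were given, so depth is unknown, and with 1 list per group differences between lists carry no test. The Wilson 95% intervals quoted cover counting over genes only.

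Around the TSS, the EGFP- cells had H3K27me3 at 23 of 36 receptor genes and H3K27ac at none, and the Ebf2-EGFP+ cells had H3K27ac at 15 to 20 of them and H3K27me3 at 0 to 2. In EGFP- cells 23 of 36 receptor genes had H3K27me3 (63.9%, interval 47.6 to 77.5%), against 48.2% of all protein-coding genes. This count fell to 7 with peaks of at least 300 bp (16.8% of all genes) and to 6 when the list was lowered to its 6387 widest peaks (13.4%). In the same cells 0 had H3K27ac (interval 0 to 9.64%), against 4.17% of all genes. In Ebf2-EGFP+ cells H3K27ac lay at 15 of 36 genes at E11.5 (41.7%, interval 27.1 to 57.8%), against 49.9% of all. At E13.5 it lay at 20 (55.6%, interval 39.6 to 70.5%), against 60.9%. At E15.5 it lay at 16 (44.4%, interval 29.5 to 60.4%), against 52.3%. The interval held the share of all genes in each of these lists. H3K27me3 was rare at their TSS in Ebf2-EGFP+ cells, at 1 gene at E11.5 (4.92% of all genes), 2 genes at E13.5 (9.31%) and 0 genes at E15.5 (1.06%). Over all lists, 28 of the 36 genes had a TSS peak in at least 1 list, and this share was not computed over all genes. H3K27ac was listed in at least 1 stage of Ebf2-EGFP+ cells for 25. The other 11 (30.6%) had it at none of the 3 stages, against 25.6% of all genes.

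**Figure D1:**
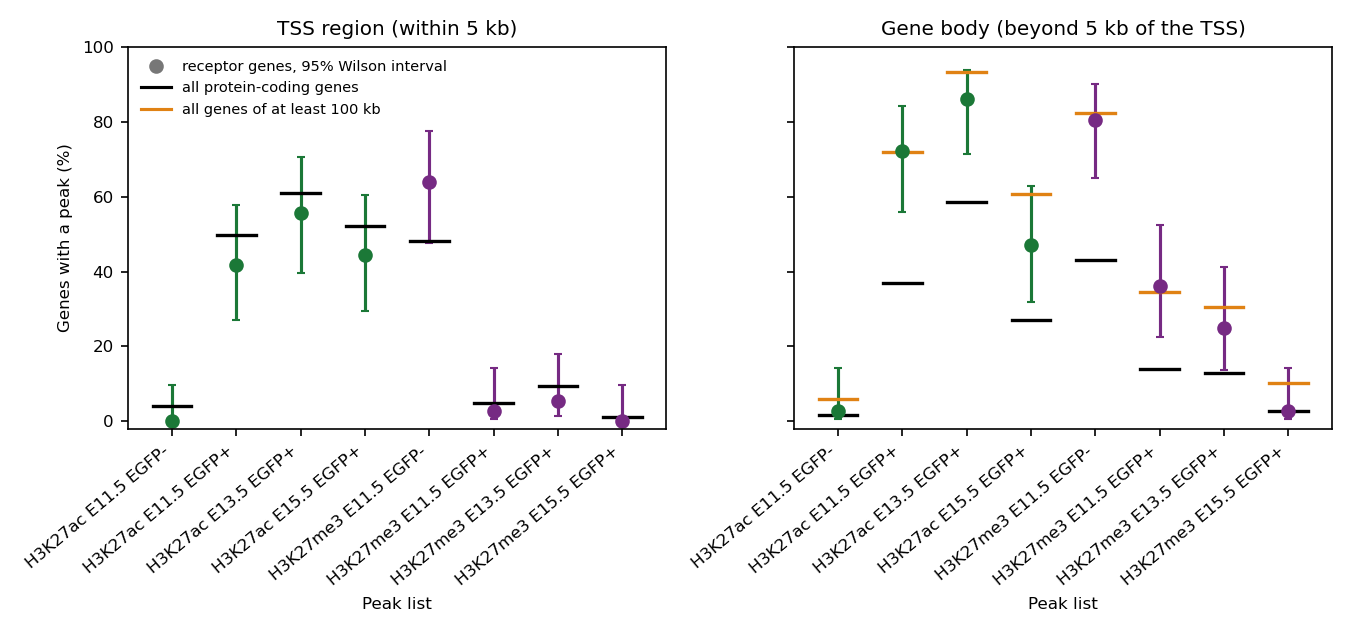
Share of genes with a peak (percent, y axis) in each of the 8 lists (x axis), within 5 kb of the TSS on the left and in the gene body on the right; points are the 36 receptor genes with 95% Wilson intervals, black lines all protein-coding genes and orange lines all genes of at least 100 kb. The H3K27me3 point of E11.5 Ebf2-EGFP- cells, at 63.9%, stands above the black line of 48.2%, and the 3 H3K27ac points of Ebf2-EGFP+ cells stand below theirs.

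Of the 23 receptor genes with H3K27me3 in EGFP- cells, 22 lacked it in E11.5 Ebf2-EGFP+ cells, as did 92.8% of all genes so marked, in a list that also held 0 of the 20 Polycomb targets. H3K27ac was listed in E11.5 Ebf2-EGFP+ cells at 14 of the 23, which is 14 of the 36 with this pair of marks, against 34.8% of all genes. These were Grik2, Grik3, Grik4, Grik5, Grin2a, Grin2c, Grin3b, Grid1, Grm2, Grm4, Grm6, Grm7, Gabra5 and Gabrd. Having H3K27me3 in EGFP- cells went with having H3K27ac in Ebf2-EGFP+ cells: 14, 18 and 14 of the 23 had it by stage, and 1, 2 and 2 of the other 13. Over all genes these shares were 72.3, 82.2 and 73% of the marked and 29.1, 41.2 and 33% of the unmarked. Some of the peaks also overlapped in position. At E11.5, 11 of the 21 H3K27ac peaks around the receptor TSS overlapped a H3K27me3 peak of EGFP- cells (52.4%), against 42.4% of such peaks over all genes. At E15.5 it was 13 of 21 (61.9%) against 46.2%. At E13.5 it was 14 of 46 (30.4%) against 28.8%. These peaks are few, their overlap was not tested, and wider peaks overlap more by construction.

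Over the 3 stages, 9 receptor genes had H3K27ac at every stage (33.1% of all genes did), namely Grik2, Grik3, Grik4, Grik5, Grin3b, Grid1, Grm2, Grm6 and Gabra5. It was listed at none of the stages for 11 (25.6% of all genes), which were Gria1, Gria3, Grik1, Grm3, Gabra3, Gabra4, Gabra6, Gabrb1, Gabrg3, Gabrr1 and Gabrr2. At E15.5 and not at E11.5 it was found for 7 genes (12.2% of all genes): Gria2, Gria4, Grin1, Grin2b, Grin2d, Grm8 and Gabra2. Of these, Grin1 and Grin2d had it at E11.5 within 5 kb of another annotated transcript start. At E11.5 and not at E15.5 it was found for 6 (9.91% of all genes): Grin2a, Grin2c, Grm4, Grm5, Grm7 and Gabrd. Of these, Grm4 had it at E15.5 within 5 kb of another annotated start. Listed at E13.5 only were 3 (12.3%), Grin3a, Gabrb2 and Gabrg1, and at E15.5 only 3 (4.09%), Gria4, Grin2b and Grm8. The 7 genes with the mark only later were 2 AMPA, 3 NMDA, 1 metabotropic and 1 GABA-A gene, and the 6 with it only earlier were 2 NMDA, 3 metabotropic and 1 GABA-A gene. The order of the stages depended on peak width. With peaks of at least 300 bp, 6, 6 and 13 of 36 genes were marked by stage, against 28.9, 23 and 42.6% of all genes. When the longer lists were lowered to the 25787 widest peaks, the length of the E15.5 list, 12, 10 and 16 genes were marked, against 44.3, 31.1 and 52.3% of all genes.

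**Figure D2:**
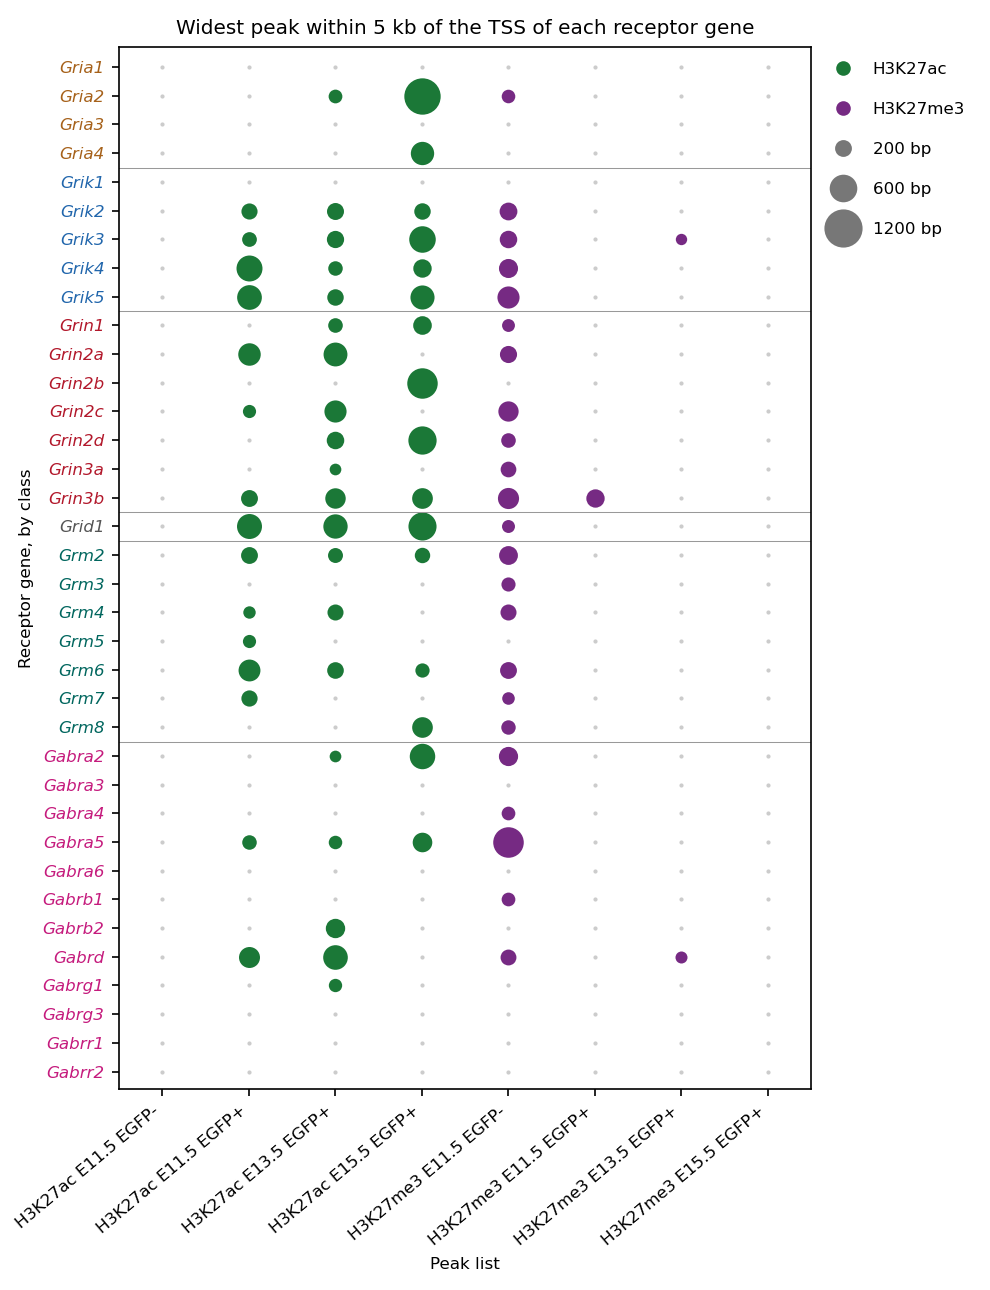
Widest peak within 5 kb of the TSS of each of the 36 receptor genes (rows, coloured by class) in each of the 8 lists (columns); dot area is proportional to peak width in bp, and a small grey point means no peak. The H3K27ac columns of Ebf2-EGFP+ cells hold 15, 20 and 16 dots by stage and the E11.5 Ebf2-EGFP- H3K27me3 column (EGFP- cells) 23.

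Peaks of each receptor class are first given within 5 kb of the TSS. AMPA receptors carry most fast excitation. Of their 4 subunit genes, 0, 1 and 2 had H3K27ac at the TSS by stage. Gria2 encodes the subunit that keeps AMPA receptors from passing calcium. Its TSS had a H3K27me3 peak of 170 bp in EGFP- cells, centred at -63 bp (negative values are upstream of the TSS). H3K27ac followed at E13.5 with peaks of 174 and 165 bp centred 2271 and 1865 bp downstream. At E15.5 it had peaks of 1218 bp (chr3:80800293-80801510) and 1136 bp (chr3:80802016-80803151), and the latter spanned the TSS. The first of these was the widest peak of that list at any receptor gene. Both marks were thus listed at Gria2, in different cells and stages. Gria4, another pore-forming subunit, had a single peak of H3K27ac in the TSS window, 501 bp at E15.5, centred 272 bp downstream. Gria1 and Gria3 had no peak near the TSS in any list. The H3K27ac peak nearest to the Gria1 TSS was 21.5 kb away at E11.5, 106 kb at E13.5 and 204 kb at E15.5, and for Gria3 it was 305, 169 and 169 kb.

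Kainate receptors form a smaller class of glutamate channels that also tune release. Of the 5 genes, 4 had H3K27ac at each stage. Grik3, which encodes a low-affinity subunit, had H3K27ac peaks of 200 bp at E11.5, of 274 and 170 bp at E13.5 and of 479 and 649 bp at E15.5. In EGFP- cells it had H3K27me3 peaks of 282 and 272 bp. At E13.5 it also had a H3K27me3 peak of 119 bp, centred at -2371 bp and clear of the H3K27ac peaks. Grik5, a high-affinity subunit, had 4, 3 and 3 H3K27ac peaks by stage, the widest being 563, 250 and 535 bp. The window of Grik5 also holds the TSS of Zfp574, so its peaks cannot be tied to Grik5 alone. Grik4 had the widest H3K27ac peak at a receptor TSS in E11.5 Ebf2-EGFP+ cells, 622 bp, centred 502 bp downstream. Grik2 had 240, 266 and 250 bp of H3K27ac by stage and 292 bp of H3K27me3 in EGFP- cells, all centred within 172 bp of the TSS. Grik1 had no peak near its TSS, and its nearest H3K27ac peak was 38.3 kb away at E13.5.

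NMDA receptors need Grin1 together with a Grin2 or Grin3 subunit. Their 7 genes had H3K27ac at 3, 6 and 4 TSS by stage, and 6 had H3K27me3 in EGFP- cells. Grin1, the obligatory subunit, had H3K27me3 of 153 bp in EGFP- cells, H3K27ac peaks of 132 and 197 bp at E13.5 and one of 320 bp at E15.5. Its E11.5 H3K27ac list had no peak within 5 kb, the nearest being 13 kb away, though another annotated transcript start of Grin1 had one. Grin2b, known as the main Grin2 subunit of the embryonic cortex, had no TSS peak in any list except H3K27ac at E15.5, a peak of 855 bp centred 869 bp downstream. Grin2a, the subunit that rises after birth, ran the other way. It had 1 peak of 466 bp at E11.5, 5 peaks at E13.5 of which the widest was 525 bp, and 0 at E15.5. Its H3K27me3 peak in EGFP- cells was 270 bp. Grin2c, a subunit best known from cerebellum, had 4 H3K27me3 peaks in EGFP- cells, of 181 to 379 bp, and H3K27ac peaks at E11.5 (1) and E13.5 (5) only. Grin2d had H3K27ac of 219 and 283 bp at E13.5 and of 736 bp at E15.5, the last reaching out of the window at its downstream edge. At E11.5 only another annotated transcript start of Grin2d had a H3K27ac peak within 5 kb. Grin3a had 1 H3K27ac peak at the TSS, 126 bp at E13.5. Grin3b, a glycine-binding subunit, was the one receptor gene with H3K27me3 within 5 kb of the TSS at E11.5 in Ebf2-EGFP+ cells, a peak of 310 bp centred 2415 bp downstream. H3K27ac in the same cells lay at 3407 bp (263 bp wide), and at E13.5 a 359 bp peak of H3K27ac covered the position of the earlier H3K27me3 peak.

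Grid1 encodes a delta receptor, which organises synapses rather than opening with glutamate. It had H3K27ac peaks of 227 and 575 bp at E11.5, 5 peaks of up to 545 bp at E13.5 and 1 of 727 bp at E15.5, which lay over the TSS. Its H3K27me3 peaks in EGFP- cells, 130 and 155 bp, were 1385 and 3118 bp downstream.

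Metabotropic receptors adjust excitability and release. Of their 7 genes, 5, 3 and 3 had H3K27ac by stage, and 6 had H3K27me3 in EGFP- cells. Grm6, known as the receptor of retinal ON bipolar cells, had peaks of 441 and 214 bp at E11.5 and of 187 bp at E15.5. At E13.5 its peaks of 255 and 126 bp were centred at -5080 and -4593 bp. Grm4, a presynaptic receptor, had 142 bp at E11.5 and peaks of 160, 182 and 237 bp at E13.5, and 0 at E15.5, where another annotated transcript start had one. Grm5, which couples to calcium release, had a TSS peak of 160 bp at E11.5 alone, and at E13.5 one only at another annotated start. Grm7 had 243 bp at E11.5, and Grm8 393 bp at E15.5. Grm2 had 1 peak at each stage, of 262, 206 and 219 bp, at 5112, 2107 and 1562 bp downstream, the first over the window's edge. Grm3 had H3K27me3 in EGFP- cells (184 bp) and no H3K27ac at the TSS, though its gene body had H3K27ac peaks of 142 and 244 bp at E11.5 and of 195 bp at E13.5.

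GABA-A receptors are the chloride channels opened by GABA, which depolarises many immature neurons. Of 12 subunit genes, 2, 5 and 2 had H3K27ac at the TSS by stage, and 5 had H3K27me3 in EGFP- cells. Gabra5, an alpha subunit of extrasynaptic receptors, had H3K27ac at each stage, with 195 bp, then 168 bp, then 354 and 327 bp. Its H3K27me3 peak of EGFP- cells was 860 bp wide (chr7:57509108-57509967), the widest TSS peak of that mark at a receptor gene, and it overlapped H3K27ac peaks of all 3 stages. Gabrd, which encodes the delta subunit, had H3K27ac of 158 and 406 bp at E11.5 and 559 bp at E13.5, and none at E15.5. With Grik3 it was 1 of 2 receptor genes with both marks at E13.5 (8.39% of all genes had both). Its H3K27me3 peak of 133 bp overlapped the H3K27ac peak there. Gabra2, an alpha subunit abundant in the embryo, had 126 bp at E13.5 and 598 bp at E15.5. Gabrb2 had 346 bp and Gabrg1 164 bp of H3K27ac at the TSS, both at E13.5 alone. Gabra4 and Gabrb1 lie head to head, and a single H3K27me3 peak of 173 bp in EGFP- cells was counted for both. Gabra3, Gabra6, Gabrg3, Gabrr1 and Gabrr2 had no TSS peak in any list, though another annotated start of Gabrr2 had H3K27ac at E13.5 and H3K27me3 in EGFP- cells. Gabra6, an alpha subunit of cerebellar granule cells, was the one receptor gene with no peak at the TSS or in the gene body. The rho subunit genes Gabrr1 and Gabrr2 are known mainly from retina.

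**Figure D3:**
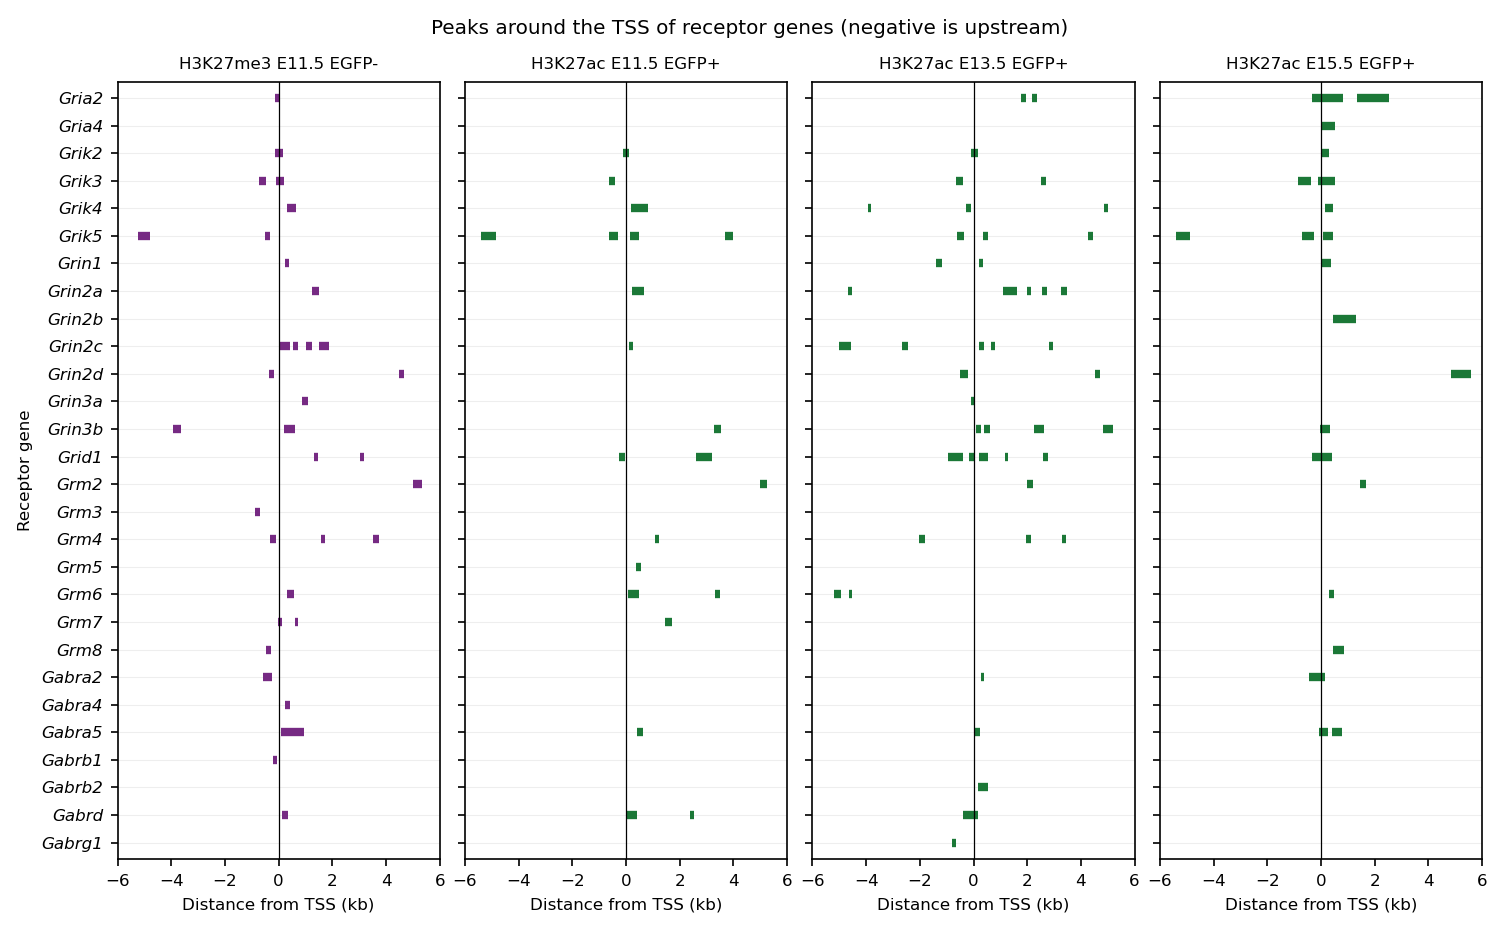
Peaks around the TSS of the receptor genes that had a peak in 1 of the 4 lists shown (rows), by distance from the TSS in kb (x axis, negative is upstream); bars are drawn to the width of each peak, purple for H3K27me3 and green for H3K27ac. In the E15.5 panel 17 of 21 peaks are centred within 1 kb of the TSS, and in the E13.5 panel 20 of 46.

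The place and width of the H3K27ac peaks differed between the stage lists, which differed in length, and the median widths of the whole lists had the same order. Around the receptor TSS their median width was 262 bp at E11.5, 204.5 bp at E13.5 and 434 bp at E15.5, while the medians of the whole lists were 212, 183 and 283 bp. Centres within 1 kb of the TSS made up 12 of 21 peaks, 20 of 46 and 17 of 21. The share of such centres over all genes was not computed. Counted by gene, 11, 15 and 14 of 36 receptor genes had a peak within 1 kb, against 40.6, 44.5 and 46% of all genes. Within 5 kb it was 15, 20 and 16, against 49.9, 60.9 and 52.3%. Of the 21 peaks at E15.5, 9 overlapped a peak of E11.5 and 9 a peak of E13.5 (42.9% each), against 58.2 and 53.1% of the E15.5 TSS peaks over all genes. The E15.5 peaks that no earlier stage listed included those over Gria4, Grin2b, Grm8 and Gabra2.

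The receptor genes differed widely in CpG density. A promoter was called CpG-rich when the 500 bp on each side of the TSS had at least 50% GC and a CpG observed over expected ratio of at least 0.6. This held for 17 of 36 receptor genes (47.2%) and 44.4% of all genes. Of the 17, 16 had H3K27me3 in EGFP- cells, against 69.7% of all CpG-rich genes, and of the 19 others 7 had it, against 31%. H3K27ac in Ebf2-EGFP+ cells lay at 9, 13 and 10 of the 17 by stage, where 78.3, 79.4 and 86.2% of all CpG-rich genes had it. Of the other 19 it lay at 6, 7 and 6, against 27.3, 46.2 and 25.2%. Gabrg3 was the CpG-rich gene without H3K27me3. Grid1 and Grik3 had the highest GC contents (76.7 and 74.1%) and Gabra6 the lowest (38.7%).

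**Figure D4:**
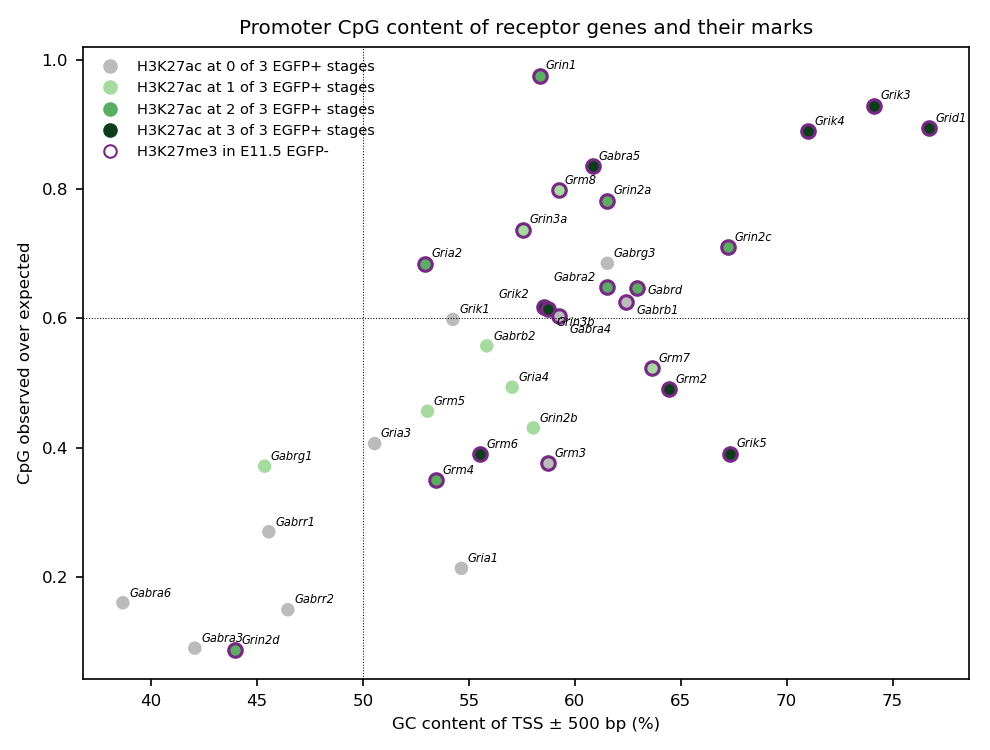
GC content (percent, x axis) and CpG observed over expected ratio (y axis) of the 500 bp on each side of the TSS of the 36 receptor genes; fill gives the number of Ebf2-EGFP+ stages with H3K27ac, a purple ring H3K27me3 in EGFP- cells, and dotted lines the limits of 50% and 0.6. Of the 17 genes above both limits, 16 carry the ring.

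The core of the RE1 element, bound by the repressor REST at neuronal genes, was searched as the letters AGCACC, any 2 bases and GGACAGC on both strands within 1 kb of each TSS. It was present at 2 of 36 receptor genes (5.56%) and at 44 of all 21938 promoters (0.201%). The matches are shown with 5 bases on each side and the fixed letters in capitals. That of Grin1 (chr2:25319012-25319036) begins 156 bp downstream of the TSS, and that of Gria2 (chr3:80802987-80803011) 171 bp upstream on the strand opposite to the gene, so it stands reversed in the promoter above.
Grin1: gcttcAGCACCtcGGACAGCacccg
Gria2: attttAGCACCgcGGACAGCgcttt
Both genes were without H3K27ac within 5 kb of the TSS at E11.5, and both had it at the later stages. A H3K27ac peak lay over the match in each gene at E15.5 and in no other list. The H3K27me3 peak of EGFP- cells lay 52 bp from the match in Grin1 and 9 bp from it in Gria2. Of the 44 promoters with the core, 50, 72.7 and 59.1% had H3K27ac in Ebf2-EGFP+ cells by stage and 59.1% had H3K27me3 in EGFP- cells. A match is a run of letters and no evidence of binding, and both genes were picked out after their values were seen.

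Beyond 5 kb of the TSS the receptor genes are long, with a median length of 196703 bp against 17425 bp for all genes, and 22 of the 36 reach 100 kb. H3K27ac lay in the body of 26 genes at E11.5 (36.9% of all genes with a body), 31 at E13.5 (58.6%) and 17 at E15.5 (27.2%), and of 1 in EGFP- cells (1.71%). H3K27me3 lay in 29 genes in EGFP- cells (43.1%), and in 13, 9 and 1 gene in positive cells by stage (14, 12.8 and 2.89%). Length moved with these counts: of all genes of at least 100 kb, 72, 93.3 and 60.6% had H3K27ac in the body by stage, and 82.5% had H3K27me3 in EGFP- cells. Of the 22 long receptor genes, 16, 19 and 12 had H3K27ac by stage, and 19 had H3K27me3 in EGFP- cells. Per length, H3K27ac was sparser than in other genes, with 0.920, 2.72 and 0.381 peaks per 100 kb by stage. Genes of at least 100 kb had 1.1, 3.55 and 0.644, and all genes 1.63, 4.93 and 0.901. For H3K27me3 in EGFP- cells the values were 1.4, 1.55 and 2.22, and in E11.5 Ebf2-EGFP+ cells 0.275, 0.235 and 0.363, for receptor, long and all genes in that order.

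A few genes held many of the gene body peaks. At E13.5 Grik4 had 41, Grid1 34, Grm4 26 and Grik3 24 of the 257 H3K27ac peaks. At E11.5 Grik3 had 11 of 87, and in EGFP- cells Grik3 and Grm4 had 17 each of 132 H3K27me3 peaks. Per 100 kb at E13.5, kainate and NMDA genes had 4.67 and 4.49 H3K27ac peaks and Grid1 4.48. AMPA, GABA-A and metabotropic genes had 0.743, 1.61 and 1.8. All genes had 4.93, and all genes of at least 100 kb had 3.55. Of the 83 kainate peaks, 41 lay in Grik4 and 24 in Grik3. Gabra2, Gabra5 and Gabra6 had no gene body peak in any list. Of the 11 receptor genes without H3K27ac at the TSS, 9 had it in the gene body in at least 1 stage. Of the 11, Gabra4, Gabra6, Gabrr1 and Gabrr2 are shorter than 100 kb and the rest are longer. At E13.5 alone, 93.3% of all genes of at least 100 kb had H3K27ac in the body. The share among all genes without H3K27ac at the TSS was not computed. The widest gene body peak was 1221 bp of H3K27ac at E13.5 in an intron of Grid1 (chr14:35432515-35433735). In EGFP- cells the widest H3K27me3 peak was 924 bp in an intron of Gabrg1 (chr5:70761620-70762543). A H3K27ac peak of 1167 bp overlapped it at E13.5 and one of 409 bp at E11.5.

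Such pairs were more frequent among wide peaks, both in receptor genes and in all genes. A wide peak covers more positions, so its overlap is raised by construction. Of the 26 gene body peaks of H3K27ac at E13.5 that were at least 400 bp wide, 19 overlapped a H3K27me3 peak of EGFP- cells (73.1%), against 50.4% of such peaks in all genes. Of all 257, 48 did (18.7%), against 13.6%. In an intron of Gabra3, 963 bp of H3K27ac (chrX:72612891-72613853) covered a H3K27me3 peak of 753 bp. The list of EGFP- cells also gave 647 bp in Gabrb1 beside 630 bp of H3K27ac, and 500 bp in Grin3a beside 925 bp. Whether inputs served as controls in peak calling is not given in the sources used here, so a part of the input in these shared positions was not tested. In EGFP- cells the one H3K27ac peak of a receptor gene, 204 bp in an exon of Grik5, also lay on a H3K27me3 peak. At E15.5 the one H3K27me3 peak was 118 bp in an intron of Grik4, and in Ebf2-EGFP+ cells the widest were 327 bp in Grm4 at E11.5 and 321 bp in Grin2c at E13.5.

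**Figure D5:**
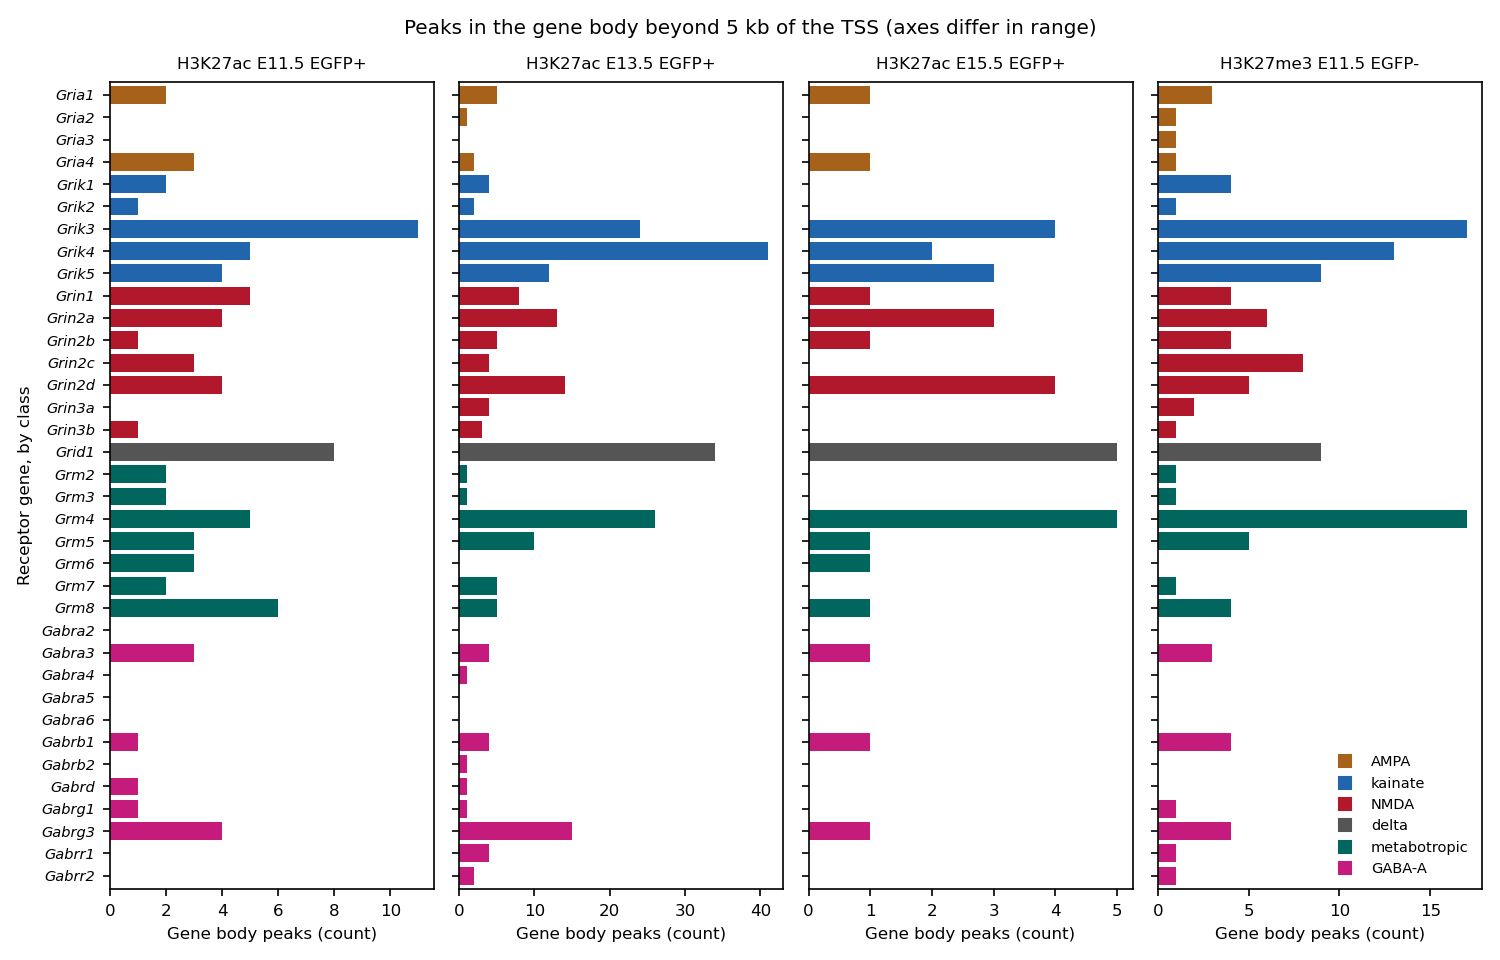
Number of gene body peaks beyond 5 kb of the TSS (x axis, count, with a different range in each panel) for each of the 36 receptor genes (rows, coloured by class) in 3 H3K27ac lists of Ebf2-EGFP+ cells and the H3K27me3 list of E11.5 Ebf2-EGFP- cells. Grik4 reaches 41 and Grid1 34 at E13.5, while Gabra2, Gabra5 and Gabra6 have 0 in every panel.

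Genes of proteins that work with the receptors were read in the same way. Of 15 auxiliary subunit genes, which include the TARP (Cacng), cornichon and Neto families, 10, 14 and 11 had H3K27ac in Ebf2-EGFP+ cells by stage, and 11 had H3K27me3 in EGFP- cells. Over all genes the shares were 49.9, 60.9 and 52.3% for H3K27ac and 48.2% for H3K27me3. Of 18 postsynaptic scaffold genes, 14, 15 and 15 had H3K27ac by stage, and 15 had H3K27me3 in EGFP- cells. Dlg4 (PSD-95) and Gphn (gephyrin), which hold glutamate and GABA-A receptors at synapses, had H3K27ac at every stage. Of 11 genes for transmitter synthesis and transport 8, 6 and 4 had it, with the GABA genes Gad2 and Slc32a1 listed at E11.5 and E13.5 and not at E15.5. The receptor genes had it at 15, 20 and 16 of 36. These lists are small and were not tested against each other.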

How the data were processed

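ChIP-seq peak lists of 8 groups were used (15 ChIP libraries; the 8 input libraries have no list of their own). Per the labels and the study's methods, the authors aligned reads to mm10 with Bowtie 1.1.2, allowing up to 3 mismatches, and peak calling used MACS (p of 1e-05). Its version and any pooling of replicates are not given in the sources used here. The score the authors deposited was 0 for every peak, so peaks were used by position and width, with starts read as counted from 0.

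Genes were the protein-coding genes of GENCODE M21, with the TSS at the 5′ end of the gene. A peak counted when it overlapped the TSS window of 5 kb, or the gene beyond it (17795 genes have such a body), by at least 1 bp. Python 3.11.15, NumPy and samtools were used, and overlap counts were tested on simulated data. Receptor genes and lists were chosen with earlier results of these data known. Peaks are given singly for the 2 genes per class with the most H3K27ac width, for genes with H3K27me3 in Ebf2-EGFP+ cells and for the widest peak per list. All others were picked after their values were seen. RefSeq promoters matched 26 of 36 genes. Alternatives were a 1 kb window, any transcript start, peak centres, a minimum width of 300 bp, equal list length by width, whole genes and merged peaks.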

Additional observations from a re-analysis of the deposited data

How the results depend on the processing

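No paired analysis was possible because each group had 1 list, and replicates were not listed apart, so leaving out a library could not be run either. The counts below are of 36 receptor genes, and the counts not named stayed within 1.5 times. With peaks of at least 300 bp, H3K27ac at the TSS fell to 6 genes at E11.5 and 6 at E13.5 in Ebf2-EGFP+ cells (28.9 and 23% of all genes). H3K27me3 at the TSS became 7 in E11.5 Ebf2-EGFP- cells (16.8%) and 0 at E13.5 (0.62%). In gene bodies the same limit left 0 (EGFP-), 11 (E11.5) and 4 (E15.5) genes with H3K27ac, and 2, 1 and 0 with H3K27me3 in Ebf2-EGFP+ cells by stage. With every list lowered to the widest 1386 (H3K27ac) or 1429 (H3K27me3) peaks, H3K27ac lay at the TSS of 0, 0 and 1 genes in Ebf2-EGFP+ cells by stage (6.25, 1.39 and 6.87% of all genes), and H3K27me3 at 1 in EGFP- cells (2.96%) and 0 at E13.5 (2.67%). Gene bodies then had H3K27ac in 0, 5 and 0 genes by stage, and H3K27me3 in 6 (EGFP-), 3 (E11.5) and 5 (E13.5). For the gene body counts at both settings the share over all genes was not computed. These settings keep fewer peaks by construction. With the longer lists lowered to 25787 and 6387 peaks, chosen after seeing the data, H3K27ac at E13.5 lay at 10 genes (31.1%) and H3K27me3 in EGFP- cells at 6 (13.4%). With a 1 kb window, H3K27me3 in Ebf2-EGFP+ cells lay at 0 genes at E11.5 (1.89% of all genes) and 1 at E13.5 (5.34%), and with any transcript start at 3 (9.27%) and 5 (13.1%). Merging peaks within 1 kb kept each peak density within 1.5 times. Depth is unknown, so a missing peak does not show that a mark was absent.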
